A study of Rattus norvegicus with 10 samples.

Results

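The genes of oxidative phosphorylation were examined in the fetal kidney of rats whose mothers had been made hyperinsulinemic. Members were all probe sets with 1 gene symbol that names a nuclear subunit of complexes I to V or one of the assembly factors whose symbols share those stems. The rule used symbols only, no measured value, and found 98 probe sets for 93 genes among 15923 probe sets on the array. Of these genes, 34 belong to complex I, 4 to complex II, 8 to complex III, 15 to complex IV and 16 to complex V, 13 are assembly factors and 3 are a supercomplex factor, a paralog and a pseudogene. A filter on dim signals (the array's 40th percentile, reached on at least 5 of 10 arrays) left 89 member probe sets of 87 genes among 9601 tested probe sets. Below it were the probe sets of Cox6a2, Cox7a1, Cox8b, Cox11, Ndufa4l2 and Cox6c-ps1, the second one of Ndufv3 and 2 of Atp5if1.

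Total RNA from rat kidneys of day 22 of gestation was hybridised to Affymetrix arrays, 1 array per sample, and read as MAS5 signals, a linear summary of the probes of each set. The hyperinsulinemic group (replicates 6 to 10) came from growth-restricted fetuses of Wistar mothers of 200 to 280 g, on a normal diet, with a 2 mm slow-release insulin implant placed under the skin 1 week before mating and a second one 1 week after it. The normal group (replicates 1 to 5) came from fetuses of normal mothers, for which the labels give a regular diet, 4 to a cage, and no implant or strain. The labels name no litter, dam, sex or batch, so the spread behind each p-value is that among these 5 samples per group, part of which may be technical, and the implant and the growth restriction cannot be told apart.

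In the mitochondrial inner membrane, complexes I and II take electrons from NADH and succinate, and complexes III and IV pass them by way of coenzyme Q and cytochrome c to oxygen. Complexes I, III and IV pump protons, and complex V, the ATP synthase, uses the gradient to make ATP. Each of these complexes except complex II also holds subunits encoded by the mitochondrial genome, and most have many small accessory subunits around the core that carries the chemistry. In the kidney this system supplies the ATP for sodium reabsorption, and the proximal tubule relies on it heavily.

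Promoters from RefSeq (assembly GRCr8; 250 bases before to 50 after the gene start) were available for 83 of the 93 genes. They were searched on both strands for TGCGCA, the core of the site of nuclear respiratory factor 1, for CCGGAAG, a core of the site of the GABP factor, and for AAGATGGC, the core of the site of YY1; these factors are known to act on many genes of this pathway. TGCGCA reads the same on both strands, and CCGGAAG could run into AAGATGGC, which it did in 0 member promoters. TGCGCA stood in 21 member promoters (25.3%, against 7.68% of all 27457 promoters), CCGGAAG in 23 (27.7%, against 9.22%) and AAGATGGC in 18 (21.7%, against 3.44%). At least 1 of these motifs stood in 48 member promoters (57.8%), against 18.1% of all promoters and 21.5% of protein-coding ones. The promoters of 4 genes are shown, 2 whose signals were among the lowest on hyperinsulinemic replicate 7 (Ndufa3 and Atp5mk) and 2 whose signals were not (Sdha and Uqcrc1), because these genes carry the pattern described further on. Capitals mark the motifs on either strand. The windows are chr1:74515509-74515808, minus strand (Ndufa3), chr1:255921998-255922297, minus strand (Atp5mk), chr1:30764303-30764602, plus strand (Sdha) and chr8:118467973-118468272, plus strand (Uqcrc1), written 5′ to 3′ on the gene's strand.
Ndufa3: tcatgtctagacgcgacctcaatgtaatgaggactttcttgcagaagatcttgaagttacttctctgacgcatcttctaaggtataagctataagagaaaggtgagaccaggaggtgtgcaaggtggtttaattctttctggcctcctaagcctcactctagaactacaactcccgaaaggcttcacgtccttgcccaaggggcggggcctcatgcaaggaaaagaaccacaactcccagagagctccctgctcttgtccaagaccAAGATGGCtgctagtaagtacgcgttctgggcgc
Atp5mk: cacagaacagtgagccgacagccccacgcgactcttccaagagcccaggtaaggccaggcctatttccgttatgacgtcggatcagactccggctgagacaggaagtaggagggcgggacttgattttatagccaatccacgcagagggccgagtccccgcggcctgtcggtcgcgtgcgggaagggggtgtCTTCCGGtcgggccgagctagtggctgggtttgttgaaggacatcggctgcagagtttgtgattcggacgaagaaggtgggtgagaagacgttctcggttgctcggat
Sdha: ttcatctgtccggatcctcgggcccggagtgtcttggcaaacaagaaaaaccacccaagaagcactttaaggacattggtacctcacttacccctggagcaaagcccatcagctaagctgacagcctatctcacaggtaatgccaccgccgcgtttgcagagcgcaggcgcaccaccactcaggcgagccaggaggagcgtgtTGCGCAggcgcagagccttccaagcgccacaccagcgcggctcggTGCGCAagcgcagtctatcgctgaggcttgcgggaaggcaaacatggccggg
Uqcrc1: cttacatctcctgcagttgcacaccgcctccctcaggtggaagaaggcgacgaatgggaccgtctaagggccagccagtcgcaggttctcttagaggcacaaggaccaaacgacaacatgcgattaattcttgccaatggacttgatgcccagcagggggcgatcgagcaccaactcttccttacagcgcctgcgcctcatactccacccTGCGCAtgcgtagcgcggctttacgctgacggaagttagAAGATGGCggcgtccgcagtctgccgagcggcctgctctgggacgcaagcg
Ndufa3 and Uqcrc1 share AAGATGGC close to the gene start. A relation between the motifs and the signals on replicate 7 was not tested. Sdha holds TGCGCA at 2 places, Uqcrc1 at 1, and Atp5mk holds CCGGAAG on the other strand. A motif match describes the letters and does not show that a factor binds there.

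Several features of the arrays bear on the comparison. Hyperinsulinemic replicate 7 stood apart in the oxidative phosphorylation genes, so group values are given with and without it. Liver transcripts varied: the summed signal of 11 liver markers on the array ran from 784 to 5798 on hyperinsulinemic arrays and from 550.4 to 2135 on normal arrays, with the most Alb on hyperinsulinemic replicate 6 (1742) and normal replicate 4 (842), and 231 on replicate 7; with the mean of the liver markers as a covariate 0 members passed and their median log2 difference was -0.07. Xist, the transcript made where an X chromosome is silenced, read 42.4 to 70.5 on hyperinsulinemic and 0.8 to 2 on normal arrays, while the labels give no fetal sex. A difference between groups, of the X-linked members too, therefore cannot be told apart from one that goes with Xist level or fetal sex. All 16 proximal tubule markers passed the filter, with a summed signal of 17947 to 19437 in the hyperinsulinemic and 18437 to 20153 in the normal group. Of these markers 2 were higher and 14 lower in the hyperinsulinemic group (median log2 difference -0.12, 5 with an unadjusted limma p under 0.05), and 4 and 12 without replicate 7 (-0.11). Of 9 tested loop of Henle and distal tubule markers 2 were higher and 7 lower (-0.14), and 1 and 8 without replicate 7 (-0.14). Of 9 tested ureteric bud and collecting duct markers 6 were higher and 3 lower (0.02), and again 6 and 3 without replicate 7 (0.04). All 9 markers of interstitial stroma were lower (-0.17, 5 with an unadjusted limma p under 0.05) and all 7 tested liver markers higher (0.99, also 5), also without replicate 7 (-0.21 and 1.16). The part of these cell types in the values of the oxidative phosphorylation genes was not tested beyond the liver covariate. In whole tissue, fewer cells of a type and less RNA per cell cannot be told apart. Of markers of other mitochondria-rich tissues, 0 of 8 for heart and skeletal muscle, 0 of 4 for brown fat and 0 of 5 for adrenal passed the filter on dim signals, which needs 5 arrays. Summed adrenal signals were 95.4 to 165 on hyperinsulinemic arrays and 108 to 158 on 4 normal arrays, but 914 on normal replicate 1.

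No oxidative phosphorylation gene passed the test between hyperinsulinemic and normal kidneys. With limma and Benjamini-Hochberg adjustment over all tested probe sets, 0 of 89 members had an adjusted p under 0.05, and the smallest among them was 0.941; over all probe sets 1 passed (0.0104%). At an unadjusted limma p under 0.05 there were again 0 members, against 515 of 9601 probe sets (5.36%). Signals of the 2 groups were free of overlap for 0 members, against 1.04% of all probe sets. The fitted differences were small, from -0.35 to 0.15 on the log2(signal + 16) scale. With 1 probe set per gene, 31 genes had higher and 56 lower means in the hyperinsulinemic group, with a median log2 difference of -0.03, against 0.00 over all 7267 tested genes. Without replicate 7 the count turned to 61 higher and 26 lower, with a median of 0.04; without replicates 7 and 10 it was 49 and 38, with a median of 0.01. The sign of the median thus turned with replicate 7.

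**Figure D1:**
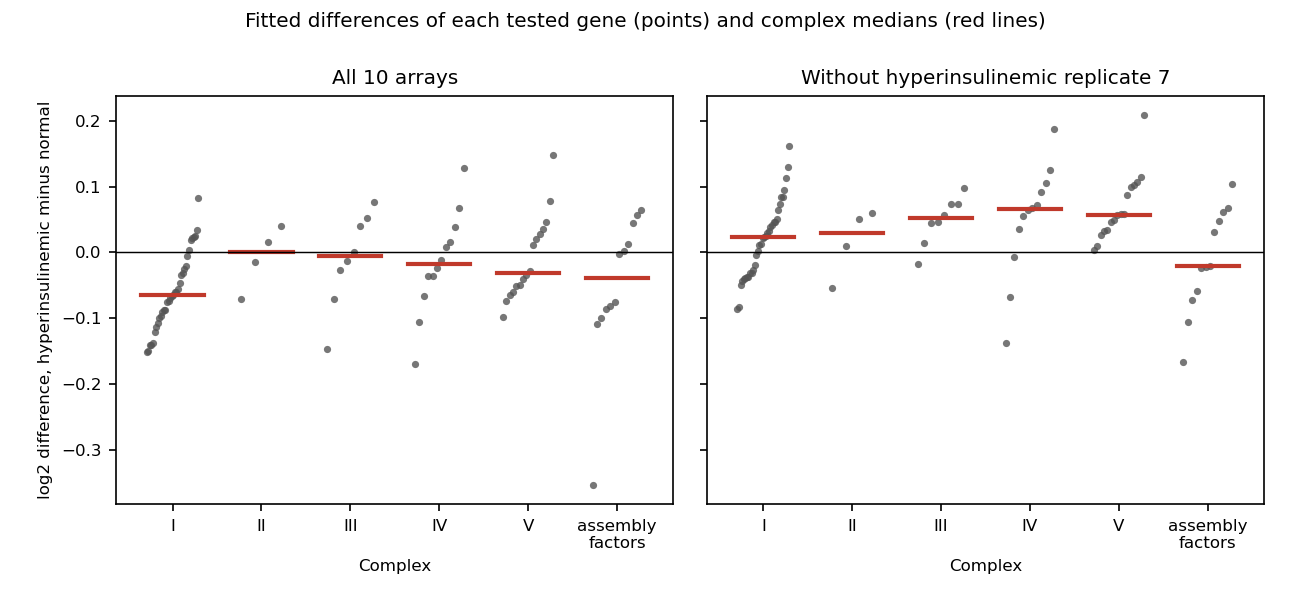
Each point is the fitted log2 difference (hyperinsulinemic minus normal, on log2(signal + 16)) of 1 tested gene, by complex, and red lines are medians; the left panel uses all 10 arrays and the right panel leaves out hyperinsulinemic replicate 7. The complex I median of -0.07 becomes 0.02 without that array, and all 16 complex V genes then lie above 0.

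Replicate 7 was low in most members and near the others in the rest. Each signal was set against the gene's median over the 10 arrays, on the log2 scale, and the median over the 87 genes was 0.06 on hyperinsulinemic replicate 6, -0.29 on replicate 7, -0.01 on replicates 8 and 9 and 0.09 on replicate 10, against -0.01 to 0.01 on the normal arrays. Replicate 7 gave the lowest of all 10 signals in 65 of 89 member probe sets (73%), while it did so in 10.7% of all tested probe sets. Replicate 10 gave the highest signal in 38 members and replicate 6 in 20, against 13.3% and 15.2% of all tested probe sets. Dixon's criterion was applied on the log2 scale (a gap to the next array of more than 0.71 of the group's range). By it, replicate 7 stood apart below its group in 16 of 89 members (18%), against 0.969% of all. All arrays had been scaled by MAS5 to 1 overall level, so these values are relative to the other genes of the same array.

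**Figure D2:**
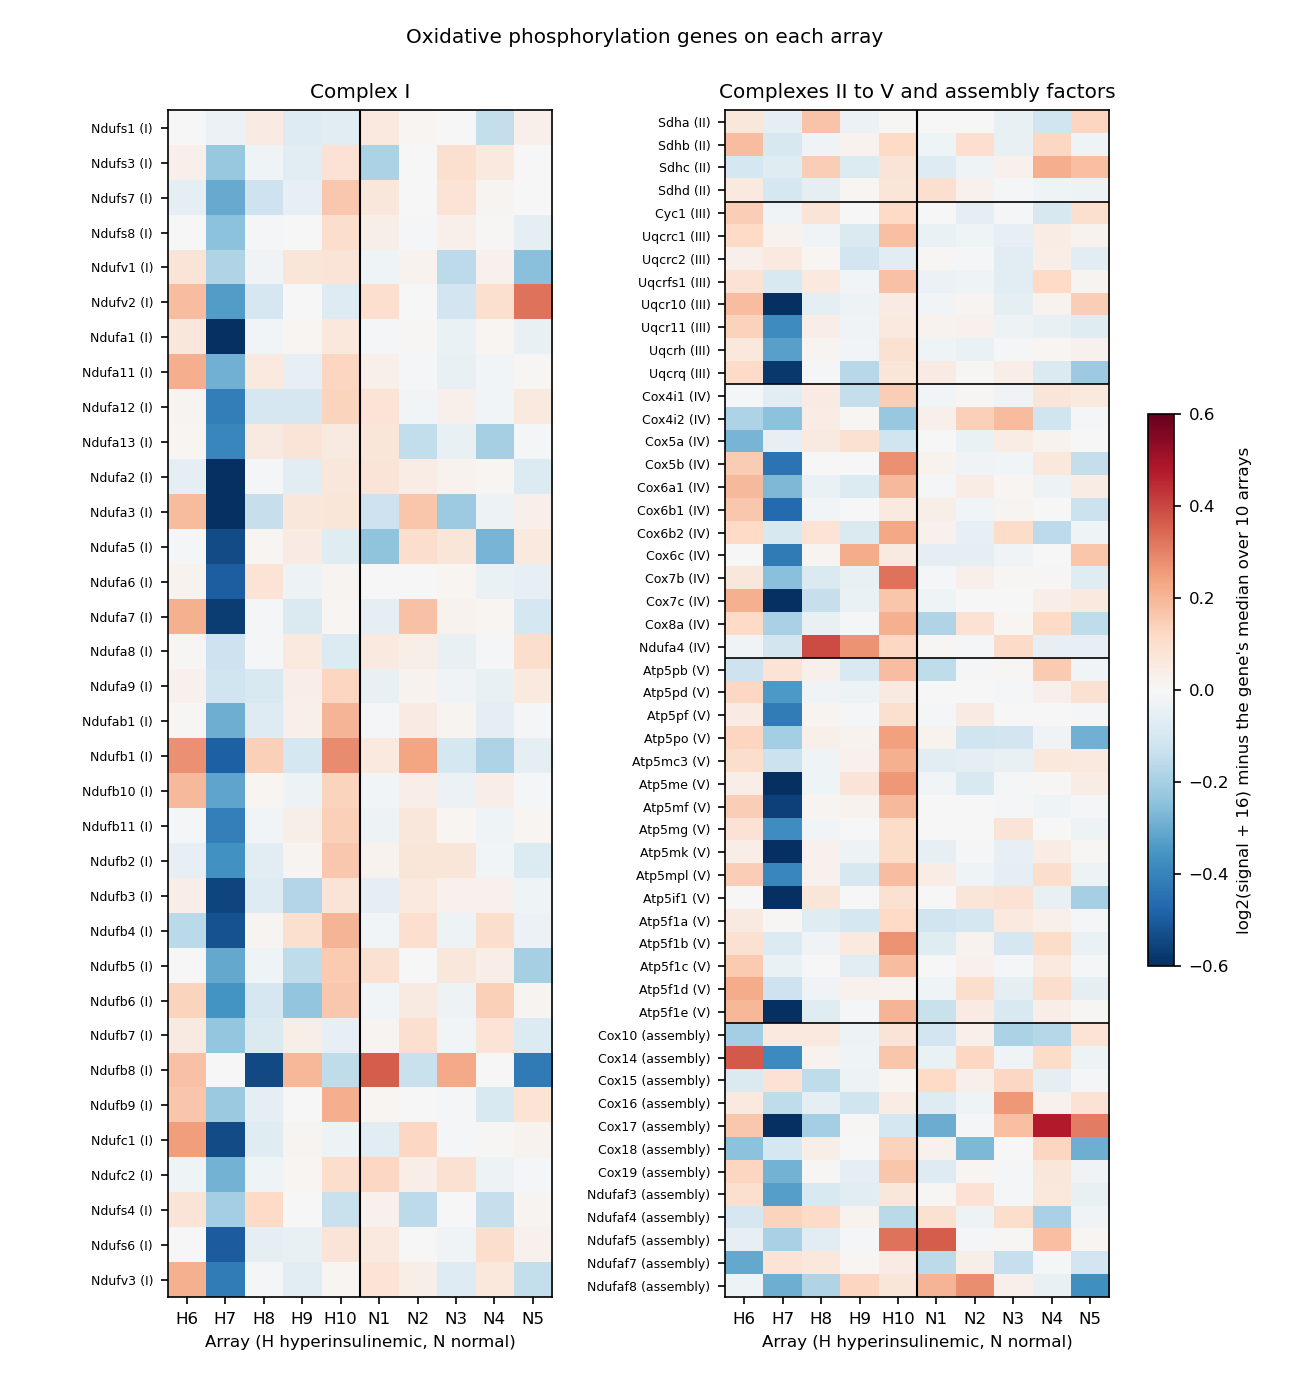
Heat map of the tested genes of complexes I to V and of the assembly factors: columns are arrays (H6 to H10 hyperinsulinemic, N1 to N5 normal), rows are genes ordered by complex and kind of subunit, and colour is log2(signal + 16) minus the gene's median over the 10 arrays, cut at 0.6 in either direction. Column H7 is blue in most rows and pale in rows such as Sdha, Uqcrc1, Uqcrc2, Cyc1 and Atp5f1a.

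Subunits of different kinds parted on this array. A class of 19 core subunits was taken from complexes I, II, III and V. It held catalytic, redox and F1 subunits, the core proteins of complex III and all 4 complex II genes, membrane anchors included. Over this class the median on replicate 7 was -0.09, and 9 of 19 had their lowest signal there. Over the 44 accessory subunits of complexes I, III and IV it was -0.37, and 40 of 44 were lowest there. The split was not the same in each complex. The 6 complex I core genes had a median of -0.24 on replicate 7, with 4 lowest there. The 12 complex IV accessory genes had a median of -0.25, with 9 lowest there. These classes were drawn up with the values known, and the split is given as a description.

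**Figure D3:**
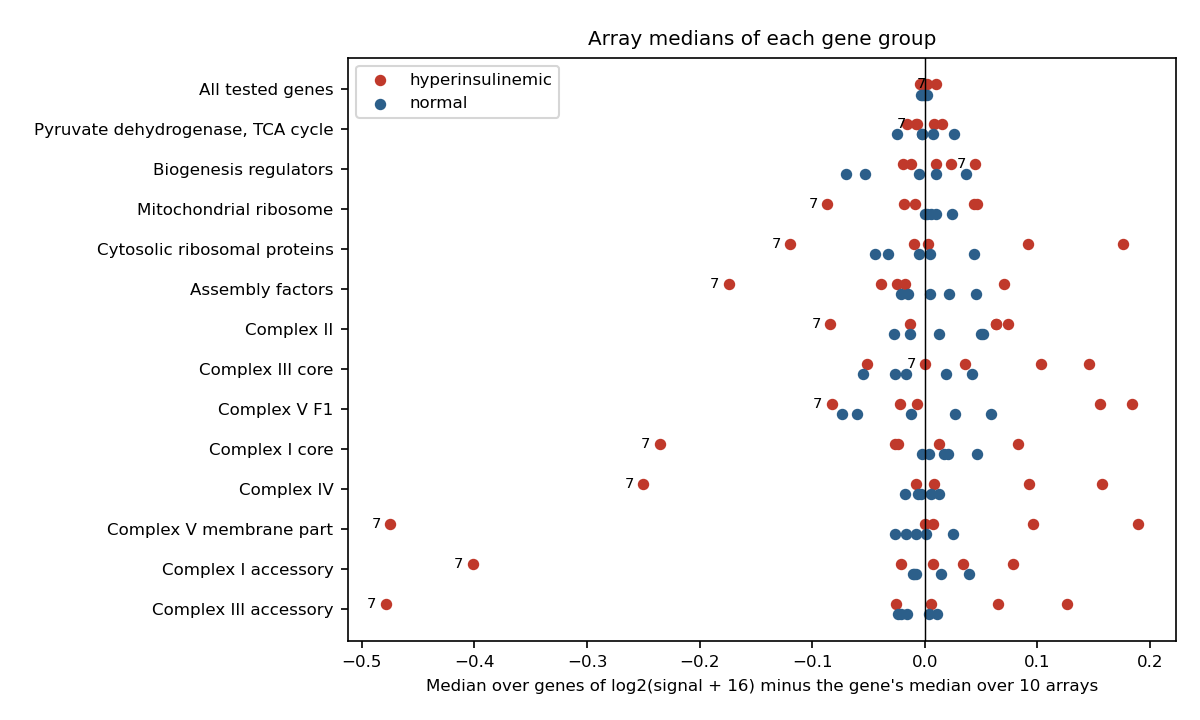
For each gene group (down the page) the points give each array's median of log2(signal + 16) minus the gene's median over 10 arrays, hyperinsulinemic in red above normal in blue, with replicate 7 marked. Replicate 7 lies at -0.40 for complex I accessory, -0.48 for complex III accessory and -0.47 for complex V membrane genes. It lies at -0.24 for the complex I core and -0.25 for complex IV. Values are 0.00 for the complex III core, -0.08 for complex V F1, -0.12 for cytosolic ribosomal proteins and -0.01 for pyruvate dehydrogenase and citric acid cycle genes.

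Complex I, the NADH dehydrogenase, had all 34 genes tested, of which 7 were higher and 27 lower in the hyperinsulinemic group, with a median log2 difference of -0.07; without replicate 7 these were 21, 13 and 0.02, and without replicates 7 and 10 they were 14, 20 and -0.01, so the sign turned back. Its array median on replicate 7 was -0.35, against -0.01 to 0.03 on the normal arrays. Among the 6 core subunits the largest opposite values were those of Ndufv1 and Ndufv2, which together form the site where NADH is oxidised. Ndufv1 read 1749, 1458, 1632, 1741 and 1746 on hyperinsulinemic replicates 6 to 10, against 1625, 1679.9, 1481, 1686 and 1391 on normal replicates 1 to 5, a log2 difference of 0.08 ± 0.07 (SE; limma adjusted p = 0.973). Ndufv2, the iron-sulphur partner of Ndufv1, read 1463, 1017, 1199, 1282 and 1218 on hyperinsulinemic arrays, against 1381, 1290.1, 1185, 1376 and 1618 on normal arrays, a difference of -0.15 ± 0.09 (limma adjusted p = 0.958). The groups overlapped in both genes, and the highest Ndufv2 signal was on normal replicate 5. Ndufs1, the large iron-sulphur subunit, spanned only 802 to 876 on hyperinsulinemic and 766 to 883 on normal arrays, and replicate 7 lay within that range.

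Replicate 7 was below all other arrays in 27 of the 28 accessory subunits of complex I (array median -0.40). It was so in 4 of the 6 core subunits as well (-0.24). Ndufa3, a small membrane subunit, read 1319, 539, 1048, 1211 and 1215 on hyperinsulinemic replicates 6 to 10, against 1056, 1299, 991, 1128 and 1181 on normal replicates 1 to 5. Replicate 7 had less than any other array by a wide gap, and the other 4 hyperinsulinemic arrays lay within or just above the normal range. The group difference of Ndufa3 was -0.14 ± 0.18 with all arrays and 0.08 ± 0.08 without replicate 7 (limma adjusted p = 0.973 and 0.91). Ndufa1, an X-linked accessory subunit needed for assembly, read 1918, 1171, 1811, 1846 and 1909.6 on hyperinsulinemic arrays, against 1822, 1837, 1777, 1845 and 1774 on normal arrays. Its normal arrays were tightly grouped and so were 4 of the hyperinsulinemic ones, with replicate 7 alone below. Ndufb11, also X-linked, showed the same order with 1345 on replicate 7, 1775 to 1982 on the other hyperinsulinemic arrays and 1758 to 1885 on normal arrays. The 1 accessory subunit that was not lowest on replicate 7 was Ndufb8, whose dim probe set spanned 115 to 203 on hyperinsulinemic arrays, with its lowest on replicate 8, and 126 to 229 on normal arrays.

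Complex II, succinate dehydrogenase, which is also an enzyme of the citric acid cycle and is encoded wholly in the nucleus, was evenly divided. Of its 4 genes 2 were higher and 2 lower, with a median log2 difference of 0.00, and 3 and 1 without replicate 7 (median 0.03), or 2 and 2 without replicates 7 and 10 (0.01). Sdha, the flavoprotein that oxidises succinate, read 1882, 1730.5, 2022, 1749.8 and 1804 on hyperinsulinemic arrays, against 1794, 1795, 1738, 1649 and 1961 on normal arrays, a difference of 0.04 ± 0.06 (limma adjusted p = 0.974). Sdhc, a membrane anchor, read 1664, 1702, 1986, 1693 and 1892 on hyperinsulinemic arrays, against 1695, 1757, 1826, 2084 and 2033 on normal arrays, a difference of -0.07 ± 0.07. In both genes the groups overlapped and replicate 7 lay close to its neighbours. Sdhd, the other anchor, had 2 probe sets, with differences of -0.03 and -0.02. Both read lowest of all 10 arrays on replicate 7 (1210.6 and 1765.6). Sdhb was also lowest there, at 1577, with 1662 to 1917 on the other hyperinsulinemic and 1633 to 1838 on normal arrays. So 2 of the 4 genes were lowest on replicate 7, where the complex II median was -0.08.

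Complex III, the cytochrome bc1 complex, divided by kind of subunit. Its 4 core and redox genes all had higher hyperinsulinemic means (median log2 difference 0.05), and its 4 accessory genes all had lower ones (median -0.05). Without replicate 7 the accessory genes were all higher too (median 0.05), and 3 of the 4 core genes were higher; without replicates 7 and 10, 7 of the 8 genes were higher (median 0.03). Cyc1, the cytochrome c1 that hands electrons to cytochrome c, read 2339.6, 2077, 2223, 2104 and 2287 on hyperinsulinemic arrays, against 2109.7, 2024, 2098, 1969 and 2254 on normal arrays, a difference of 0.08 ± 0.05 (limma adjusted p = 0.973). Uqcrc2, a core protein, read 2149, 2195, 2127, 1945 and 2014 on hyperinsulinemic arrays, against 2117, 2096, 2017, 2169 and 2013 on normal arrays, and replicate 7 was the highest array of all. Uqcr10, a small accessory subunit, read 2415, 1236, 2044, 2081 and 2196 on hyperinsulinemic arrays, against 2101, 2146, 2041, 2156 and 2355 on normal arrays. So within 1 complex, the same array was highest for Uqcrc2 and far below every other for Uqcr10, whose group difference was -0.15 ± 0.13 with replicate 7 and 0.01 without it.

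**Figure D4:**
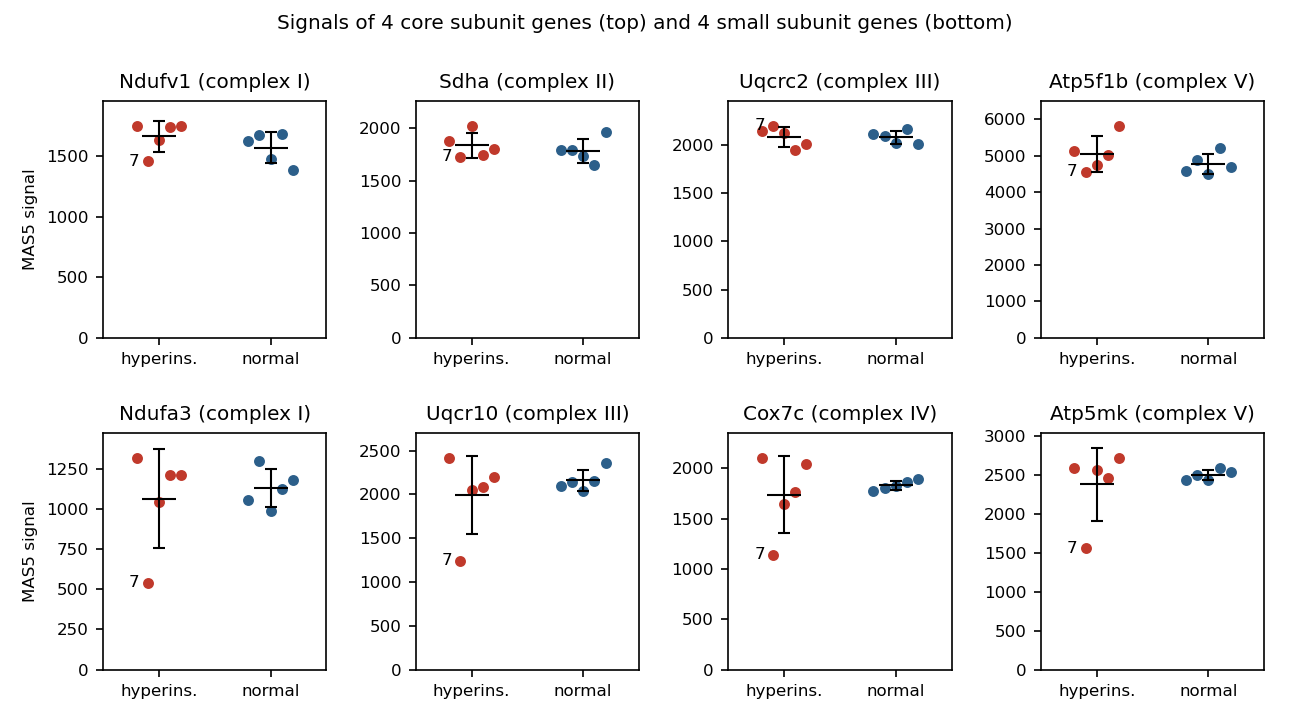
MAS5 signals (linear, axes from 0) of 4 core subunit genes (top) and 4 small subunit genes (bottom) in hyperinsulinemic (left, red) and normal (right, blue) kidneys; points are arrays, black marks are the mean and SD of 5, and 7 marks hyperinsulinemic replicate 7. Genes were chosen with their values known; replicate 7 reads 539 for Ndufa3 and 1236 for Uqcr10, below every other array, but 2195 for Uqcrc2, above every other.

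Complex IV, cytochrome c oxidase, had 12 of the 15 genes in the set tested, 5 higher and 7 lower (median log2 difference -0.02), or 9 and 3 without replicate 7 (median 0.07) and 7 and 5 without replicates 7 and 10 (0.03). Its catalytic core is encoded by the mitochondrial genome, for which 0 probe sets were named here. Ndufa4, first assigned to complex I and now placed in complex IV, read 1665, 1568, 2225, 2039.6 and 1845 on hyperinsulinemic replicates 6 to 10, against 1700.4, 1682, 1832, 1635 and 1633 on normal replicates 1 to 5. Replicates 8, 9 and 10 were above every normal array and replicates 6 and 7 were not, and the difference was 0.13 ± 0.08 (limma adjusted p = 0.971). Without replicate 7, Ndufa4 was one of 2 members with an unadjusted limma p under 0.05 (0.19 ± 0.07, adjusted p = 0.755), when 6.12% of all probe sets had one. Cox7c, a small subunit, read 2102, 1141, 1647, 1766 and 2038 on hyperinsulinemic arrays, against 1779, 1808, 1819, 1866 and 1890.3 on normal arrays. Normal kidneys differed little from each other in Cox7c, while replicates 6 and 10 lay above all of them and replicates 7, 8 and 9 below.

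Several complex IV subunits have tissue isoforms, and 3 heart and muscle forms were below the filter while their common forms, where in the set, passed it. Cox4i1, the common subunit 4, spanned 2704 to 3306 on hyperinsulinemic and 2940.0 to 3136 on normal arrays, a difference of -0.02 ± 0.06. Cox4i2, the isoform known from lung and for its induction by low oxygen, read 122, 116, 146, 142 and 118 on hyperinsulinemic arrays, against 144, 157, 164, 129 and 140.3 on normal arrays. Its difference of -0.17 ± 0.09 came with the smallest p of any member (limma adjusted p = 0.941), and the groups overlapped. Cox6a1, the common form, differed by -0.01 ± 0.08, and Cox8a by 0.04 ± 0.08. The heart and muscle form Cox6a2 read 5.3 to 10.4 on hyperinsulinemic and 4.8 to 7 on normal arrays, and Cox8b read 1.5 to 3.2 on hyperinsulinemic and 1.6 to 3.3 on normal arrays. Cox7a1, another heart and muscle form, was scattered, with 19.4, 11.6, 111, 43 and 39.7 on hyperinsulinemic arrays, against 53.1, 65.3, 59.9, 12.9 and 47.6 on normal arrays. Cox6b1, the common form of a subunit that faces the intermembrane space, spanned 1266 to 1969 on hyperinsulinemic and 1604 to 1802 on normal arrays (difference -0.04 ± 0.09). Cox6b2, known from testis, spanned 186 to 238 on hyperinsulinemic and 178 to 217 on normal arrays (difference 0.07 ± 0.08). The groups overlapped in both. The X-linked Cox7b differed by 0.01 ± 0.08 and read highest on replicate 10, at 0.32 above its median over the arrays on the log2 scale.

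Complex V, the ATP synthase, had all 16 genes tested, 7 higher and 9 lower (median log2 difference -0.03). Without replicate 7 all 16 were higher (median 0.06), and 14 of 16 without replicates 7 and 10 (median 0.03). Of the F1 part, which holds the catalytic sites, Atp5f1b, the catalytic beta subunit, read 5128, 4550.4, 4750.1, 5016 and 5814 on hyperinsulinemic arrays, against 4579.8, 4889.8, 4494, 5208 and 4694 on normal arrays, a difference of 0.08 ± 0.07 (limma adjusted p = 0.973). The F1 member furthest down on replicate 7 was the small epsilon subunit Atp5f1e, with 2494, 1374, 2066, 2162 and 2505 on hyperinsulinemic arrays, against 1979, 2249, 2037, 2234 and 2184 on normal arrays. Replicates 6 and 10 were above every normal array for Atp5f1e, replicate 7 was below all of them, and its difference was -0.04 ± 0.13, or 0.11 without replicate 7.

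In the stalk that holds the F1 part in place, Atp5po, known as the oligomycin sensitivity conferring protein, had the largest positive difference of all members. It read 2425, 1922, 2260.4, 2244 and 2626 on hyperinsulinemic replicates 6 to 10, against 2249, 2039.6, 2043, 2185 and 1808 on normal replicates 1 to 5, a difference of 0.15 ± 0.08 (limma adjusted p = 0.941). Replicates 6, 8 and 10 were above every normal array. Replicate 9 lay just under the highest normal array, and replicate 7 lay inside the normal range. Without replicate 7 the difference was 0.21 ± 0.07 (limma adjusted p = 0.627). Atp5pd, another stalk subunit, spanned 1762 to 2447 on hyperinsulinemic and 2219 to 2386 on normal arrays (-0.06 ± 0.07, and 0.01 without replicate 7). Atp5pb, the b subunit, was high rather than low on replicate 7 (2644), with 2288 to 2841 on the other hyperinsulinemic and 2239 to 2787 on normal arrays.

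All 6 membrane genes of complex V were lowest on replicate 7. Atp5mk, a small subunit that helps ATP synthases pair, read 2590.2, 1559, 2568, 2469.6 and 2722 on hyperinsulinemic arrays, against 2434, 2508, 2439, 2599.5 and 2539 on normal arrays. Atp5mf read 1887, 1150.5, 1719, 1724 and 1951 on hyperinsulinemic arrays, against 1706, 1696, 1694, 1669 and 1693 on normal arrays, where the 5 arrays lay within a few percent of each other. In both genes the remaining hyperinsulinemic arrays were at or above the normal level. Of the genes for subunit c, which forms the rotor ring, Atp5mc3 was the 1 in the set; it differed by 0.05 ± 0.06. Atp5if1, the inhibitor that binds the F1 part when the gradient collapses, had 3 probe sets. The tested one spanned 497 to 824 on hyperinsulinemic and 669.8 to 821 on normal arrays and was lowest on replicate 7, while a dim one below the filter spanned 45.7 to 60.1 on hyperinsulinemic and 58.3 to 77.2 on normal arrays and was lowest on replicate 10, so the probe sets did not give 1 order of arrays. The dimmer of the 2 Atp5me probe sets likewise was not low on replicate 7, with 127.5 there and 84.6 to 140 on normal arrays.

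The assembly factors, which build the complexes and are no part of them, had 5 genes higher and 7 lower, with and without replicate 7 (median log2 differences -0.04 and -0.02). Cox17, a copper chaperone for complex IV, had the largest difference of any member. It read 206, 84.8, 156, 183 and 168 on hyperinsulinemic replicates 6 to 10, against 145, 181, 209, 259 and 229 on normal replicates 1 to 5, a difference of -0.35 ± 0.19 (limma adjusted p = 0.941). Normal arrays alone spread from 145 to 259, and without replicate 7 the difference was -0.17 ± 0.14. Cox10, which takes part in making haem A for complex IV, differed by 0.07 ± 0.08. It spanned 239 to 293 on hyperinsulinemic and 241 to 294 on normal arrays. Cox7a2l, a supercomplex factor, differed by 0.00 ± 0.07 and was not low on replicate 7 (1432, with 1190.3 to 1508 on normal arrays).

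Members varied more among hyperinsulinemic than among normal kidneys. The SD of the log2 values was larger in the hyperinsulinemic group for 79 of 89 members (88.8%), against 62.7% of all tested probe sets. Without replicate 7 it was larger for 67 (75.3%), against 59.2%. The median SD was 0.18 in the hyperinsulinemic group, 0.11 in it without replicate 7 and 0.07 in the normal group, while over all tested probe sets it was 0.13, 0.13 and 0.11. The comparison with all probe sets was not matched for brightness.

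Low values on replicate 7 were not limited to this pathway. Among 1136 genes with a median signal of at least 756, the lower quartile of the members, 65 were members, and of the 40 genes furthest down on replicate 7, 17 were members. Ndufa3 came first; among the others were S100a6, a calcium-binding protein (444 on replicate 7, median of the other arrays 828), Defb1, a defensin of tubule cells (798 and 1457), Rpl37a, a small ribosomal protein (2057 and 3624), and Tomm7, a small import subunit (819.8 and 1269). Over 46 cytosolic ribosomal protein genes the median was -0.12 on replicate 7 and over 71 mitochondrial ribosomal protein genes -0.09. Replicate 7 was below every other array in 24 of the 46 and in 28 of the 71. It was so in 64 of the 87 member genes and in 848 of all 7267 tested genes. Gapdh control probe sets at the 3′ end read 1.04 times those at the 5′ end on replicate 7, and 1.02 to 1.18 times over all arrays. Its proximal tubule sum, 17947, was the lowest of the 10 arrays. The part of cell makeup, RNA quality or array handling in the low values was not tested. The share of promoters with at least 1 of the motifs was 57.9% (33 of 57) for genes lowest on replicate 7 and 63.6% (14 of 22) for the other tested genes.

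Other genes of mitochondrial energy metabolism, taken from lists, also gave 0 passes after adjustment by limma. Of 20 genes of pyruvate dehydrogenase and the citric acid cycle, 11 were higher and 9 lower (median log2 difference 0.00), and 9 and 11 without replicate 7 (0.00). Pdk4, a kinase that switches pyruvate dehydrogenase off, had the smallest p among them (-0.19 ± 0.12). Of 10 genes for cytochrome c and coenzyme Q, 5 were higher and 5 lower (0.01), and 6 and 4 without replicate 7 (0.03), with Coq10b, which binds coenzyme Q, at 0.28 ± 0.14. Among 9 carriers that exchange ADP, phosphate and energy-rich metabolites 6 were higher and 3 lower (0.01), and 7 and 2 without replicate 7 (0.04), led by the adenine nucleotide carrier Slc25a5 (0.06 ± 0.05). Of 6 genes that deliver electrons to coenzyme Q by other routes, 2 were higher and 4 lower (-0.03), and 3 and 3 without replicate 7 (0.01). One of them, Gpd2, the mitochondrial glycerol phosphate dehydrogenase, averaged 109 ± 15.7 in the hyperinsulinemic and 130.4 ± 15.0 in the normal group (SD, n = 5 each), a difference of -0.23 ± 0.10 (limma adjusted p = 0.918).

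Regulators of mitochondrial biogenesis had 10 of 24 genes tested, 7 higher and 3 lower (0.02), and 6 and 4 without replicate 7 (0.01). Tfam, which packs and transcribes mitochondrial DNA, stood at 0.14 ± 0.08 (limma adjusted p = 0.941). Of 71 mitochondrial ribosomal proteins 26 were higher and 45 lower (-0.02), and 37 and 34 without replicate 7 (0.00). An unadjusted limma p under 0.05 was found for 4 of them (5.63%), against 5.17% of all tested genes: Mrpl48 was higher (0.24 ± 0.09), and Mrps25 (-0.15 ± 0.07), Mrps15 (-0.19 ± 0.09) and Mrps6 (-0.23 ± 0.10) were lower. Of 15 import genes 8 were higher and 7 lower (0.01), and 11 and 4 without replicate 7 (0.04); the receptor Tomm20 had the smallest p (-0.12 ± 0.07). Of 23 further assembly factors 11 were higher and 12 lower (-0.01), and 12 and 11 without replicate 7 (0.00), with the complex II factor Sdhaf4 at -0.17 ± 0.09. Of 7 mitochondrial antioxidant genes 2 were higher and 5 lower, with and without replicate 7 (-0.07 and -0.04). Among them were the superoxide dismutase Sod2 (-0.20 ± 0.09) and, in the other direction, the thioredoxin Txn2 (0.22 ± 0.10), both with a limma adjusted p of 0.918. Mean signals of Txn2 were 907 ± 134 in the hyperinsulinemic and 774 ± 91.0 in the normal group (SD, n = 5 each), a difference of about the size of the spread within the hyperinsulinemic group. Without replicate 7 the log2 differences were 0.29 for Txn2 and -0.18 for Sod2 (limma adjusted p = 0.602 and 0.818).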

How the data were processed

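The 2 groups had 5 arrays each. The deposited values were linear intensity values, 1 MAS5 signal per probe set and array; the submitters' processing notes name MAS5, whose version is not given in the sources used here. Genes were named through GEO's platform annotation, and 7 matching probe sets with several symbols were left out. No build was named for the array, so coordinates are those of RefSeq promoters (GRCr8). Signals were taken as log2(signal + 16), so fold changes of dim genes are understated. The 57 control probe sets were left out, and a probe set was tested when it reached its array's 40th percentile on at least 5 arrays. The comparison used limma 3.58.1 under R 4.3.3 (eBayes with an intensity trend, two-sided, Benjamini-Hochberg over all 9601 tested probe sets, threshold 0.05). The fit was also run on simulated data, where genes varied independently and the changes were larger than any member difference. That run does not measure how the fit treats small differences or an array low in many genes, such as replicate 7. Differences are hyperinsulinemic minus normal, ± SE. Per gene the brightest probe set was used. Since levels of different probe sets cannot be compared, no order of genes by signal is given. The number of arrays limits the precision.

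Members and lists were chosen with earlier results of these data known. The genes named were those with an unadjusted p under 0.05, the gene with the smallest p per complex and direction, tissue isoforms, X-linked members and, of each other mitochondrial list, genes with an unadjusted p under 0.05 and the gene with the smallest p. Ndufa3, Atp5mk, Cox7c, Atp5f1e and the other genes described for their values on replicate 7, the cytosolic ribosomal proteins, and the fit without hyperinsulinemic replicates 7 and 10 were chosen after seeing the data. Alternatives were other normalizations, pseudocounts, filters, variance models, covariates and omitted arrays. Figures used Python 3.11.15 and matplotlib 3.10.9.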

Additional observations from a re-analysis of the deposited data

Results flagged for a closer look

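Within groups of 5 arrays, a value was singled out when its gap to the nearest other array exceeded 0.71 of the group's range (Dixon's criterion), and chance singles out about 1 in 20 groups. Of 70 groups looked at, 10 were singled out, and 8 of these concern hyperinsulinemic replicate 7; since several of the genes had been picked for their values there, the count is a description. Hyperinsulinemic replicate 7 had an array median of -0.29 over all tested members and of -0.35 over complex I (log2, relative to each gene's median over 10 arrays). Its signals were 539 for Ndufa3, with 1047.5 to 1319 on the other hyperinsulinemic arrays, 1171 for Ndufa1 (1811 to 1918), 1236 for Uqcr10 (2044 to 2415), 1266 for Cox6b1 (1734 to 1969), 1345 for Ndufb11 (1775 to 1982) and 1559 for Atp5mk (2469.6 to 2722). Normal replicate 4, the normal array with the most Alb, had a complex V median of 0.035, with -0.014 to -0.0025 on the other normal arrays. The same array read 12.9 for Cox7a1, a gene below the filter, with 47.6 to 65.3 on the other normal arrays. The cause of these values was not tested.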

How the results depend on the processing

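No paired analysis was possible because the groups share no replicate numbers (6 to 10 and 1 to 5). The count of member probe sets that passed limma stayed at 0 in all 22 alternatives that gave one. Among the 89 probe sets of the reported setting the unadjusted count was 0, against 515 of all 9601 probe sets. It was at most 3 in any alternative, reached without hyperinsulinemic replicates 7 and 10, against 600 of 9601 probe sets there. An exact rank test gave 0 passes among all probe sets. By that test 0 members had an unadjusted p under 0.05, against 362 of 9601 probe sets. The count of passes over all tested probe sets was 1 as reported. It was 2 after shifting arrays to a common median, 5 without a filter, 4 with array weights, 0 without the intensity trend, with the liver score as a covariate, without the 2 arrays with the most Alb, without hyperinsulinemic replicates 7 and 10, or by the rank test, and 0 to 4 when each array was left out. The member median ran from -0.07 to 0.04 over 23 alternatives and turned positive only without replicate 7, alone (0.04) or with replicate 10 (0.01).

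Of 548 values of 25 named genes, 516 kept their sign and 32 turned it. Without hyperinsulinemic replicates 7 and 10, signs turned for Uqcr10 (0.011), Atp5pd (0.0032), Cox6a1 (0.013), Cox6b1 (0.065), Cox7b (-0.014), Ndufa1 (0.037), Ndufa3 (0.075), Atp5mk (0.022) and Atp5f1e (0.065). Cox8a turned with quantile normalization (-0.013) and with the liver score (-0.018). Cox7b turned with quantile normalization (-0.023), array weights (-0.029), the Gapdh ratio (-0.014) and without the arrays with the most Alb (-0.0049). When each array was left out, ranges that spanned 0 were -0.22 to 0.015 for Uqcr10, -0.11 to 0.010 for Atp5pd, -0.061 to 0.056 for Cox6a1, -0.090 to 0.068 for Cox6b1, -0.11 to 0.030 for Ndufb11, -0.13 to 0.047 for Ndufa1, -0.23 to 0.084 for Ndufa3, -0.15 to 0.047 for Atp5mk, -0.18 to 0.036 for Cox7c, -0.11 to 0.11 for Atp5f1e, -0.061 to 0.011 for Cox4i1, -0.010 to 0.092 for Cox8a and -0.072 to 0.072 for Cox7b. For all of these genes except Cox4i1 the upper end came from leaving out replicate 7. The cause was not tested. With 5 arrays per group, differences of this size lie within the spread between arrays. Without a filter on dim signals, the 9 dim member probe sets were tested too, and 0 passed limma after adjustment (smallest adjusted p = 0.949). An unadjusted limma p under 0.05 was found for 1 of the 9, against 828 of all 15866 probe sets in that setting. It was a dim probe set of Atp5if1 (-0.25 ± 0.10). The other dim probe set of Atp5if1 went the other way (0.22 ± 0.21), and the bright one differed by -0.07 ± 0.12.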
